A study of Oryza sativa with 12 samples.

Results

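The root transcriptome of unstressed TNG67 seedlings was described from 3 RNA sequencing (RNA-seq) libraries, out of 12 in the whole series. TNG67 (Tainung 67) is a japonica rice cultivar that served as the wild type (WT), and these libraries carried no transgene. The seedlings were 7 days old when they were moved for 24 h to fresh medium with 0 mM NaCl, in a growth chamber with 16 h of light at 28 °C and 8 h of dark at 24 °C. The other 9 libraries came from TNG67 at 150 mM NaCl and from OE1, a line carrying 35Sp::OsERF106MZ, at 0 and 150 mM NaCl, and they were not compared here. The 3 libraries are all those labelled TNG67 at 0 mM NaCl, and they were chosen with earlier results of these data known. The 25580 genes of the table for 0 mM NaCl were ranked by their mean normalized count. The labels give roots and the methods give belowground parts, whereas the design text of the record speaks of terrestrial parts. Each library pooled the tissue of several seedlings, so differences between single plants were not measured, and only 1 group was described, so no test was run.

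A rice seedling root takes up water and mineral nutrients, assimilates ammonium, and builds lignified and suberized barriers around its vascular tissue. Silicon is taken up actively by rice roots through the influx channel Lsi1 and the efflux transporter Lsi2, both in the exodermis and endodermis. The plasma membrane H+-ATPase pumps protons outward and so powers the carriers of nutrients, and aquaporins conduct water through membranes. The most abundant messages of such a root are therefore read below by role: phenolic and wall metabolism, transport, nitrogen and methionine metabolism, protein synthesis and folding, energy metabolism, and defence.

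The normalized count is the number of reads on a gene divided by a size factor of its library. The libraries held 16473262, 17303572 and 17222597 reads on the listed genes in replicates 1, 2 and 3. In the same order, 1 read was worth 1.12, 1.06 and 1.07 normalized counts. At least 1 read was found for 25553 of the 25580 genes, and for 25413 genes in each of the 3 libraries. The remaining 27 genes were listed at 0 in all 3. Pearson's r between pairs of libraries, across genes and on log2(value + 1), was 0.986 to 0.987, and Spearman's rho was 0.992 to 0.994. Genes are not independent replicates, so no p is given. A long transcript collects more reads than a short one, and no lengths were used, so the order below is an order of reads and not of molecules.

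The abundance was spread over many genes. The 10 highest genes held 2.92% ± 0.061 of the summed normalized count (SD, n = 3), the 30 highest held 6.03% ± 0.020, the 100 highest held 12.1% ± 0.075 and the 1000 highest held 38.3% ± 0.080. The 1816 highest genes, which are 7.1% of those listed, made up 50% of the total. The mean of the first gene was 99994, against 21631 for rank 30, 12229 for rank 100 and 3237 for rank 1000, while the median over all listed genes was 219. When each library was ranked on its own, 28 genes were in the top 30 of all 3 libraries, 91 were in all 3 top 100s and 927 were in all 3 top 1000s.

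The highest gene was Os02g0626100, a phenylalanine ammonia-lyase (PAL), the enzyme that opens the phenylpropanoid pathway toward lignin, suberin phenolics and flavonoids. It had normalized counts of 104331, 103061 and 92588 in replicates 1, 2 and 3. The next gene, the metallothionein-like Os12g0571100, a small cysteine-rich protein that binds metals, had 66523, 74162 and 98886. PAL was thus first in replicates 1 and 2, and the metallothionein was first in replicate 3. The plasma membrane H+-ATPase Os04g0656100 ranked 3, with 58490, 59773 and 64497. Over the 29 pairs of genes that follow each other in the top 30, the ranges over the libraries overlapped in 24 pairs. The exceptions were ranks 2 and 3, 3 and 4, 5 and 6, 7 and 8, and 20 and 21. Overlap of ranges does not use that both genes were counted in the same libraries. Ranks 6 and 7, and 10 and 11, overlapped in range yet kept their order in every library. How many overlapping pairs did so was not counted.

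**Figure D1:**
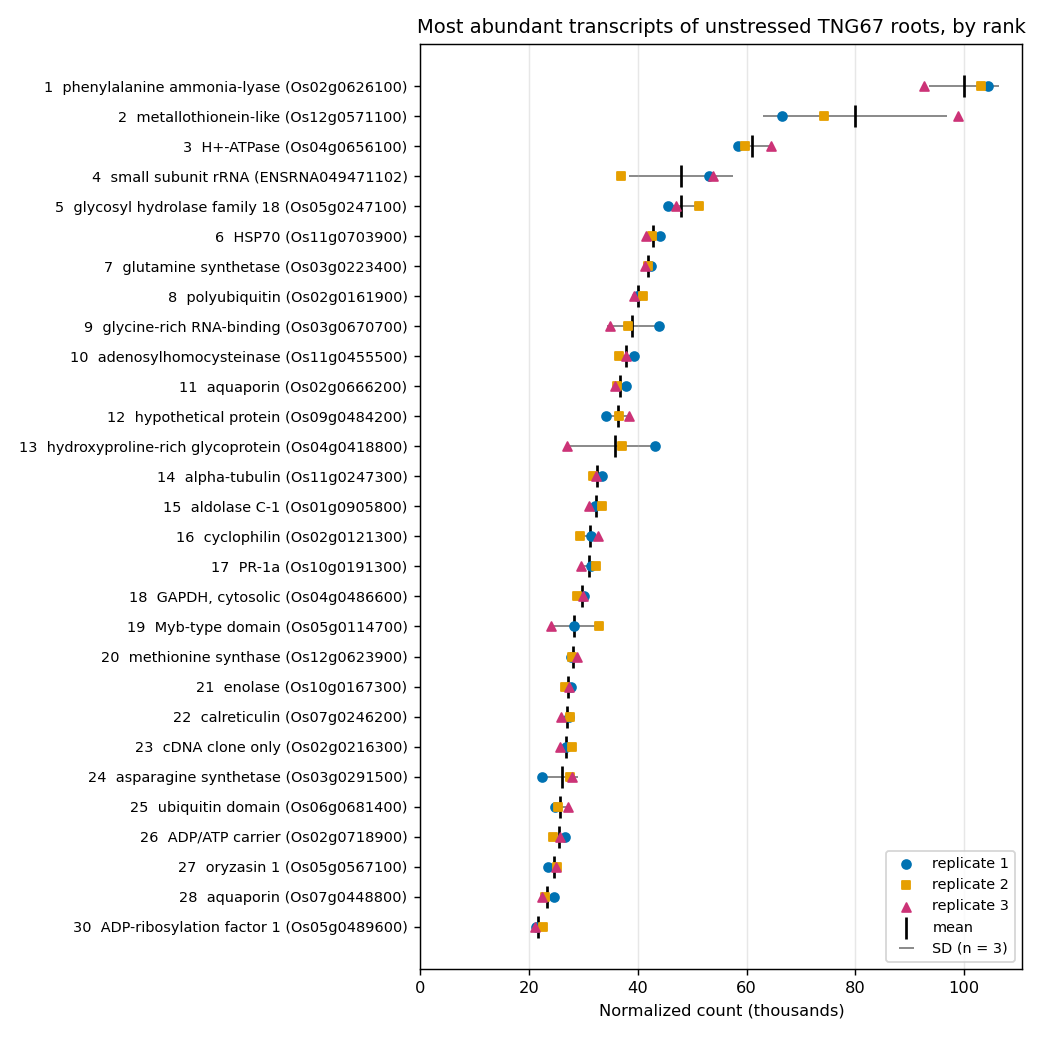
Normalized counts (in units of 1000, horizontal axis) of 29 of the 30 genes with the highest mean, in rank order from the top, with a symbol for each of the 3 libraries, a black tick for the mean and a grey bar for the SD. PAL stands at a mean of 99994 and rank 30 at 21631, and the widest scatter is seen for the metallothionein of rank 2, the ribosomal RNA of rank 4 and the hydroxyproline-rich glycoprotein of rank 13.

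The families were read from the description of each gene. The 29 families with a named function, set apart from hypothetical proteins, non-protein coding transcripts and ribosomal RNA, held 2040 genes and 24.2% ± 0.17 of the summed normalized count (SD, n = 3). They held 73 of the 100 highest genes and 349 of the 1000 highest, against 2040 of all 25580 listed genes. The families were chosen with earlier results of these data known, so these counts are not independent of the ranking. Genes described only as hypothetical or of unknown function were many (7021) and held 13.2% ± 0.17, but they supplied only 3 of the 100 highest genes. The most abundant of these, Os09g0484200, ranked 12 with 34126, 36462 and 38366 in replicates 1, 2 and 3, and the conserved hypothetical gene Os03g0227800 ranked 35 with 21218, 22867 and 18454. Os09g0484200 lies next in gene order to Os09g0484300, a polyubiquitin-like gene, and whether their reads overlap was not tested.

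**Figure D2:**
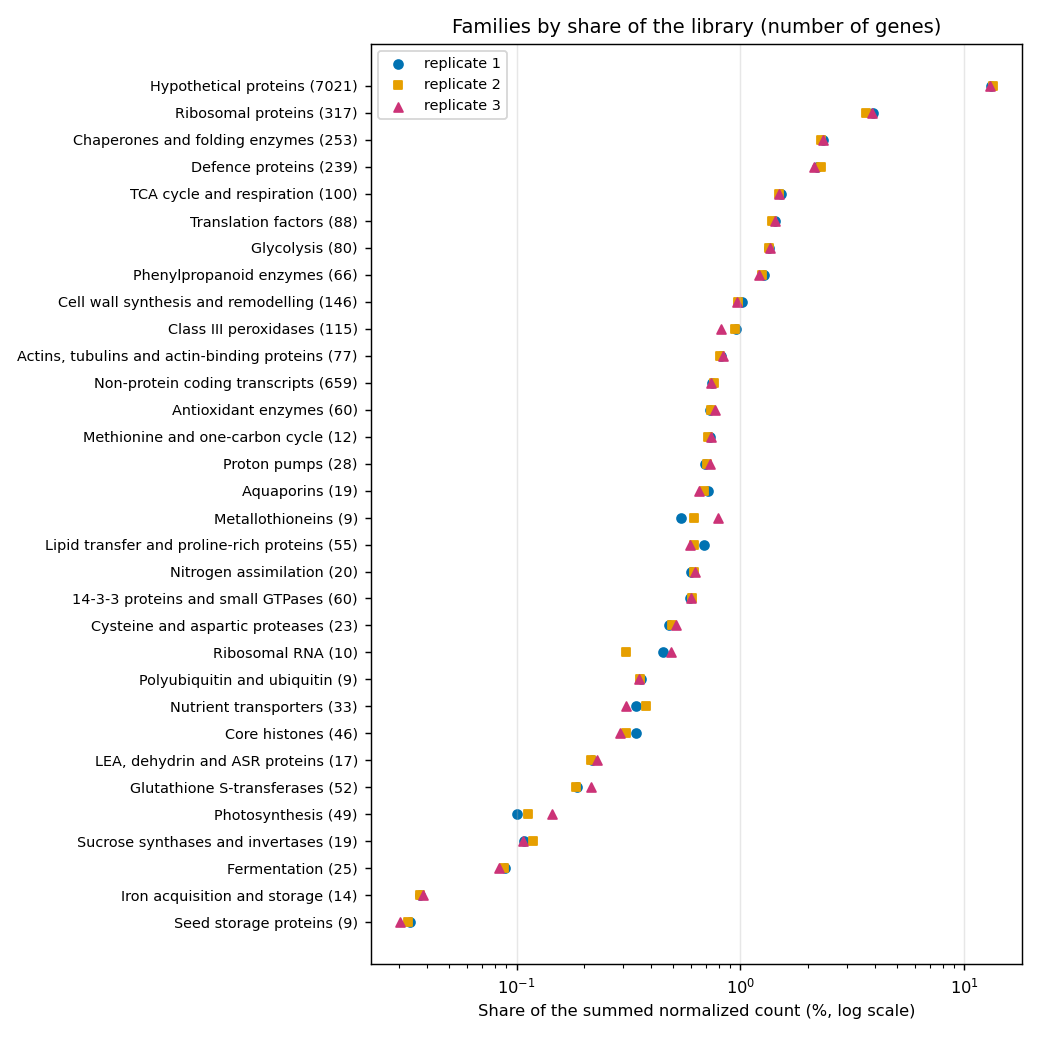
Share of each library's summed normalized count (%, log scale) held by each of the 32 families, in order of the mean share, with the number of genes in brackets and a symbol for each library. Hypothetical proteins are at about 13.2% and ribosomal proteins at 3.81%, and the 3 symbols part visibly for metallothioneins, ribosomal RNA and photosynthesis.

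Phenolic metabolism was concentrated in a few genes. The phenylpropanoid family of 66 genes held 1.25% ± 0.032 of the total, and PAL Os02g0626100 alone made up 43.6% of it. The 6 genes described as PAL held 0.713% of the total. The second PAL copy, Os02g0626400, ranked 37 and was steady, with 20691, 20159 and 20481 in replicates 1, 2 and 3. Reads of near-identical copies could have been divided between them by the counting. A 4-coumarate-CoA ligase-like gene (Os04g0683700) ranked 85, and caffeoyl-CoA O-methyltransferase Os08g0498100 ranked 174. The cinnamyl alcohol dehydrogenase Os02g0187800, described with a role in lignin biosynthesis, ranked 371 with a CV of only 2.0%, whereas Os09g0399800, another gene of this description, had 6791, 7496 and 5550.

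Wall genes held 0.986% ± 0.029 of the total. Its leading member was the cellulose synthase Os05g0176100 (OsCesA1), a subunit of the complex that spins cellulose at the plasma membrane, with 18796, 17931 and 18333. The reversibly glycosylated polypeptide Os03g0599800 (UAM1), which supplies arabinofuranose for wall polysaccharides, ranked 52 with 17754, 16235 and 16276. The cellulose synthase Os07g0424400 ranked 55 and the xyloglucan endotransglycosylase/hydrolase Os08g0237000, a remodeller of xyloglucan, ranked 94. Among proline-rich proteins the hydroxyproline-rich glycoprotein Os04g0418800 ranked 13 and was not steady, with 43245, 37148 and 26992 in replicates 1, 2 and 3. The root-specific RCc3 gene (Os02g0662000) ranked 39 and was steady, with 20867, 19476 and 19910.

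Transport was led by the plasma membrane H+-ATPase. It made up 46.5% of the 0.711% ± 0.021 held by the 28 proton pump genes. The vacuolar pump subunits followed at lower ranks, with Os06g0662000 (subunit A1) at 8883, 8875 and 9571. The 16 kDa proteolipid subunit Os12g0168900, part of the membrane ring of the vacuolar ATPase, had 7568, 7539 and 7542. All 9 proton pump genes in the top 1000 had a coefficient of variation (CV, SD over mean) under 10%, as had 89.6% of all 1000 genes.

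Aquaporins held 0.686% ± 0.034 with 19 genes, and 5 of them were in the top 100, against 100 of all 25580 listed genes. The plasma membrane aquaporin Os02g0666200 (OsPIP1;1) ranked 11 with 37869, 36185 and 35879 in replicates 1, 2 and 3. Os07g0448800 (OsPIP2;1) ranked 28 with 24634, 23022 and 22375, and the tonoplast water channel Os03g0146100 ranked 77 with 13962, 14172 and 14016. The plasma membrane gene Os02g0823100 was less steady, with 21825, 18320 and 17823. Of the 7 aquaporins in the top 1000, 5 were highest in replicate 1 and 5 were lowest in replicate 3, against 346 and 272 of all 1000 genes.

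The nutrient transporters held 0.344% ± 0.036 with 33 genes, and both silicon transporters stood out by rank. The efflux transporter Lsi2 (Os03g0107300) ranked 36 with 20774, 23926 and 17031. The influx channel Lsi1 (Os02g0745100) ranked 46 with 18125, 20120 and 15325. Both were highest in replicate 2 and lowest in replicate 3. OsPHO1;2 (Os02g0809800), which moves phosphate toward the shoot, ranked 178 with 8289, 9118 and 8974. The next members were a sulfate transporter (Os03g0196000, rank 1199) and a phosphate transporter (Os10g0444700, rank 1768), and an ammonium transporter (Os04g0509600) ranked 2713.

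Iron genes were far lower. The 14 genes of iron acquisition and storage held 0.0374% ± 0.00080, none of them in the top 1000. That set is 1000 of the 25580 listed genes, so a list of 14 may well have none in it. A nicotianamine aminotransferase gene (Os02g0302700), of the phytosiderophore pathway, had 1294, 1365 and 1525, and the metal-nicotianamine transporter Os04g0542800 (YSL16) had 1192, 1106 and 1084.

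Nitrogen assimilation held 0.617% ± 0.011 with 20 genes. Cytosolic glutamine synthetase Os03g0223400 (OsGS1;2), which fixes ammonium into glutamine, ranked 7 and was the steadiest gene of the top 30, with 42462, 41875 and 41326 (CV 1.36%). A second glutamine synthetase, Os02g0735200, ranked 63 with 16436, 15556 and 15338, although its description names the shoot isozyme. Asparagine synthetase Os03g0291500 ranked 24 with 22485, 27592 and 27978, low in replicate 1 alone. A nitrate reductase gene (Os02g0770800) ranked only 2447.

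The methionine and one-carbon cycle had 12 genes and held 0.730% ± 0.012 of the total. Of these genes 6 were in the top 100 and 7 in the top 1000, against 100 and 1000 of all 25580 listed genes. Adenosylhomocysteinase Os11g0455500, which clears the by-product of methylation, ranked 10 with 39252, 36597 and 37836. Methionine synthase Os12g0623900 ranked 20 with 27712, 27938 and 28779, and its neighbour Os12g0624000 ranked 68. Serine hydroxymethyltransferases ranked 66 (Os11g0455800) and 82 (Os03g0738400), a methylenetetrahydrofolate reductase gene (Os03g0815200) ranked 89, and S-adenosylmethionine synthetase 1 (Os05g0135700), which makes the methyl donor, ranked 209. All 7 members in the top 1000 had a CV of at most 6.42%, while 89.6% of all 1000 genes had one under 10%.

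Ribosomal proteins formed the largest family with a named function, with 317 genes and 3.81% ± 0.15 of the total. Of these genes 80 were in the top 1000, against 1000 of all 25580 listed genes. No single gene dominated, and the first, the 60S protein L10 gene Os05g0169100, made up 2.66% of the family, with 17862, 18076 and 20089. The 60S protein L5 gene Os01g0896700 had 15567, 14667 and 17210. The ribosomal proteins shifted together between libraries: 73 of the 80 genes in the top 1000 were lowest in replicate 2, where the family share was 3.64%, against 3.93% in replicate 1 and 3.87% in replicate 3. Over all 1000 genes 387 were lowest in replicate 2. Of the 80 genes, 76 had a CV under 10%, as had 89.6% of all 1000 genes.

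Translation factors held 1.42% ± 0.026. The 4 genes described as EF-1 alpha, the factor that delivers aminoacyl-tRNA to the ribosome, ranked 33 (Os03g0177400), 44 (Os03g0177900), 47 (Os03g0177500) and 56 (Os03g0178000) and summed to 74011. These copies share 1 description in the table and lie close together on chromosome 3, so their separate levels are uncertain. How reads that fit more than 1 copy were counted is not given, so their sum is uncertain as well. Taken as 1 gene at this sum, they would stand between ranks 2 and 3. The initiation factor eIF4A (Os06g0701100), an RNA helicase, ranked 69 with 15531, 15009 and 14685. Of the 21 translation factor genes in the top 1000, 15 were lowest in replicate 2, as were 387 of all 1000 genes.

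Chaperones and folding enzymes held 2.32% ± 0.034, and all 25 of their genes in the top 1000 had a CV under 10%, against 89.6% of all 1000. HSP70 Os11g0703900 ranked 6 with 44150, 42691 and 41425. A cyclophilin (Os02g0121300), a prolyl isomerase described with auxin signalling, ranked 16 with 31391, 29313 and 32766. Folding in the endoplasmic reticulum was represented by calreticulin (Os07g0246200, rank 22) and calnexin (Os04g0402100, rank 38). Genes similar to HSP82 and HSP90 (Os08g0500700 and Os06g0716700) ranked 49 and 57. For protein turnover, the polyubiquitin gene Os02g0161900 ranked 8 with 39884, 40920 and 39235, and the aspartic proteinase oryzasin 1 (Os05g0567100) ranked 27 with 23473, 25097 and 25057. The cysteine protease oryzain alpha (Os04g0650000) ranked 83 with 12826, 13151 and 14119.

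In energy metabolism, the glycolysis family held 1.34% ± 0.015, and 18 of its 20 genes in the top 1000 had a CV under 10%, with a maximum of 16.9%. It was led by aldolase C-1 (Os01g0905800, rank 15, with 32209, 33394 and 31096), cytosolic glyceraldehyde-3-phosphate dehydrogenase (Os04g0486600, rank 18, with 30163, 28888 and 29920) and enolase (Os10g0167300, rank 21, with 27653, 26594 and 27300). The TCA cycle and respiration held 1.49% ± 0.019, and all 32 of its genes in the top 1000 had a CV under 10%, against 89.6% of all 1000. The mitochondrial ADP/ATP carrier Os02g0718900, which exports ATP, ranked 26 with 26627, 24421 and 25726. The malate dehydrogenase Os10g0478200 ranked 34 with 21714, 20261 and 20715. It was placed in this family by the words of its description, although that description names it as cytoplasmic. Sucrose cleavage and fermentation were smaller. Sucrose synthase Os03g0401300 (SUS1) ranked 135 with 9780, 10633 and 9077, and alcohol dehydrogenase Os11g0210500 (Adh2) ranked 159 with 9756, 9648 and 8247. Sucrose synthase Os06g0194900 ranked 1369 and the alcohol dehydrogenase-like Os02g0637700 ranked 3944.

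Other genes of the top 30 fell in smaller groups or in none. The glycine-rich RNA-binding gene Os03g0670700, whose description calls it inducible by abscisic acid, ranked 9 with 43890, 38161 and 34871 in replicates 1, 2 and 3. Alpha-tubulin Os11g0247300, a subunit of microtubules, ranked 14 with 33454, 31774 and 32348, and the alpha-tubulin Os03g0726100 ranked 79. Os02g0216300, described only by a cDNA clone, ranked 23 with 26721, 27820 and 25770, and the ubiquitin domain gene Os06g0681400 ranked 25 with 24778, 25252 and 27260. The ADP-ribosylation factor Os05g0489600, a small GTPase of vesicle traffic, ranked 30 with 21294, 22558 and 21040, and the ADP-ribosylation factor Os03g0811900 ranked 217.

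The abscisic stress ripening genes Os11g0167800 and Os02g0543000 had 14714, 14152 and 15893, and 8513, 8937 and 9061. Both leading glutathione S-transferases, which conjugate toxic compounds to glutathione, were highest in replicate 3, with 6799, 6492 and 8369 for Os10g0528300 and 3640, 3255 and 4402 for Os10g0527800. Core histone genes, which package newly copied DNA, were highest in replicate 1, where they held 0.343% of the total, against 0.308% in replicate 2 and 0.290% in replicate 3. The histone H2A gene Os03g0279200 had 5606, 4581 and 4239, and the H2B gene Os05g0574300 had 3662, 3318 and 3134. Non-protein coding transcripts held 0.751% ± 0.013 and were led by Os12g0136500 (rank 239, with 6999, 8917 and 7116) and Os06g0686700 (rank 244, with 7600, 7560 and 7719).

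Defence proteins held 2.21% ± 0.086. A gene similar to glycosyl hydrolases of family 18, the class that includes chitinases, ranked 5 overall (Os05g0247100, with 45576, 51232 and 47036). The PR-1a-like gene Os10g0191300, a pathogenesis-related protein, ranked 17 with 31488, 32302 and 29582. Of its 24 genes in the top 1000, 6 had a CV over 20%, against 17 of all 1000. Among antioxidant enzymes, which held 0.745% ± 0.020, ascorbate peroxidase Os03g0285700 (APX1) had 22057, 21441 and 21022, and catalase B (Os06g0727200) had 15236, 16049 and 15709. Both scavenge hydrogen peroxide and both had a CV under 3%, at 2.42% and 2.61%.

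Metallothioneins differed most between the libraries among protein families. They held 0.543%, 0.622% and 0.794% in replicates 1, 2 and 3, and Os12g0571100 made up 66.3% of the family. All 6 genes of the family in the top 1000 were lowest in replicate 1, as were 341 of all 1000 genes, and 5 were highest in replicate 3, as were 414 of all 1000. Neighbouring copies on chromosome 12 moved in parallel, with 9511, 12267 and 15653 for Os12g0570700 and 8105, 10061 and 13352 for Os12g0571000. Since these copies are alike, reads could have been shared between them. The metallothioneins RicMT (Os01g0974200, with 5916, 6384 and 6847) and Os12g0567800 (with 5139, 6095 and 6066) were closer between libraries.

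Class III peroxidases, secreted enzymes that polymerize lignin and modify walls, went the other way. They held 0.956%, 0.946% and 0.816% in replicates 1, 2 and 3, and 14 of the 17 genes in the top 1000 were lowest in replicate 3, where 272 of all 1000 genes were lowest. The first member, Os04g0688100, had 21284, 19695 and 16973, and Os01g0294700 had 12753, 11830 and 9363.

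**Figure D3:**
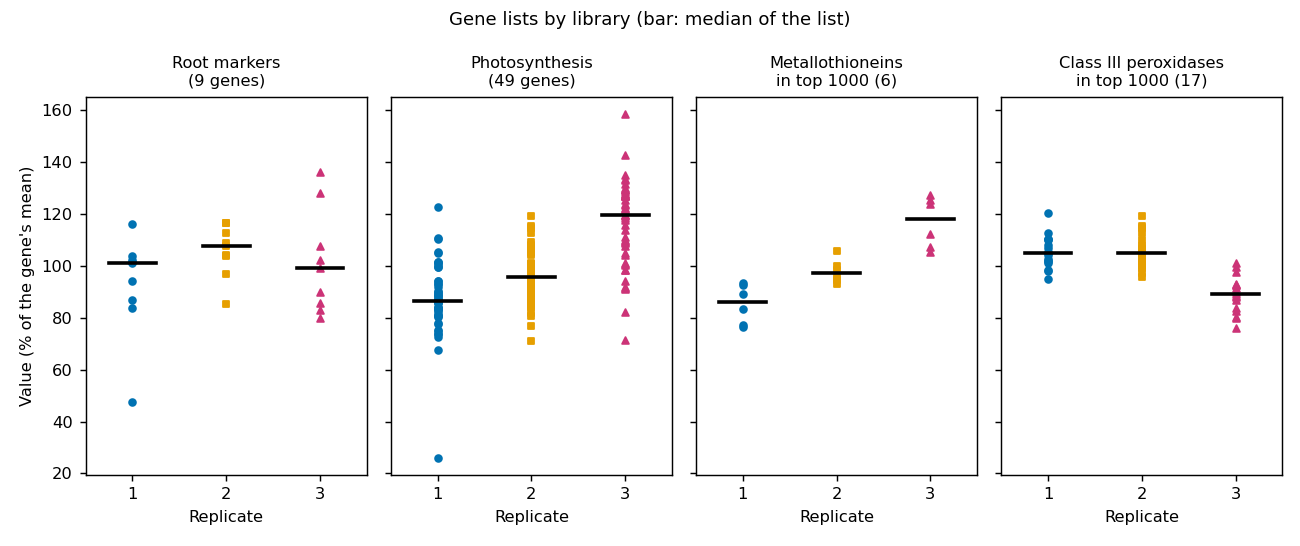
Value of each gene in each library as a percent of the gene's own mean (vertical axis), for the root markers, the photosynthesis genes, and the metallothioneins and class III peroxidases of the top 1000, with a black bar for the median of the list in that library. The median of the photosynthesis genes is 120% in replicate 3, against 86.6% in replicate 1, the metallothioneins are at 118% in replicate 3, and the class III peroxidases are at 89.1% there.

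The label of roots was checked against genes that mark roots. Of 10 genes on the root list, 9 were in the table and had reads in all 3 libraries. So had 25413 of the 25580 listed genes, and the presence of reads alone therefore does not mark a root. In the top 1000 were 4 genes of the root list (RCc3, Lsi1, Lsi2 and OsPHO1;2), against 1000 of all 25580 listed genes. The genes of ground tissue patterning were low but present, with 358, 377 and 315 for OsSHR1 (Os07g0586900) and 243, 218 and 167 for OsSCR1 (Os11g0124300). QHB (Os01g0854500), which marks the few cells of the quiescent centre, had 11.2, 27.6 and 32.2. The expansin-A17-like gene Os06g0108600 had 270, 350 and 346, and Os12g0555000, similar to the probenazole-inducible PBZ1, had 2589.8, 2544 and 3827. In whole roots, fewer cells of a type and less RNA per cell cannot be told apart.

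Genes of photosynthesis were also read. The 49 genes of this list all had reads in every library, 32 had a mean of at least 100, and none was in the top 1000. That set is 1000 of the 25580 listed genes, so few of 49 would be in it in any case. Their sum was 18509, 20578 and 26541 in replicates 1, 2 and 3, or 0.119% of the total, and 37 of the 49 genes were highest in replicate 3, against 9187 of the 25553 genes with a read. The chlorophyll a-b binding protein genes Os01g0600900 (CAB2R) and Os09g0346500 (CAB1R) had 2187, 2251 and 2615, and 1294, 1337 and 2054. Of the 4 genes similar to the Rubisco small subunit, the highest, Os12g0291100, had 267, 294 and 314, and Os12g0274700 had only 5.6, 7.42 and 11.8. The 9 genes on the endosperm list held 0.0322%, and most of that came from genes described only as glutelin family proteins, led by Os01g0111900 with 2833, 2889.5 and 2523 and by Os01g0644600 with 1529, 1576 and 1487. The prolamin precursors Os03g0766100 and Os07g0206400, storage proteins proper, had at most 15.9 and 9.7.

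Transcription factors (TFs) were found by words in the descriptions. The 721 genes of 12 TF families made up 2.82% of the listed genes and held 2.56% ± 0.063 of the total, and 3 were in the top 100 and 19 in the top 1000 (1.9%). The Myb-type gene Os05g0114700 ranked 19 with 28224, 32781 and 24025. It was followed by the NAM domain gene Os05g0426200 of the NAC family (rank 80, with 13434, 14211 and 13901) and the basic/leucine zipper gene Os05g0129300 (rank 100, with 11844, 12417 and 12426). The MYB-related gene Os01g0975300, described with drought and salinity tolerance, ranked 112 and was unsteady, with 11572, 12902 and 8217.

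Of the 44 genes whose descriptions name AP2/ERF factors, 5 were in the top 1000, against 1000 of all 25580 listed genes. OsERF106MZ is of this class but is not described as such in the table, so the 44 are not the whole class. They were led by Os03g0183000 with 11313, 11118 and 10257 and by the AP2/EREBP gene Os05g0121600 (RSR1) with 9633, 9070 and 8446. The C2H2 gene Os01g0871200 had 8128, 8571 and 8900, OsHox5 (Os08g0416000) had 7157, 7172 and 7408, and the Aux/IAA gene Os03g0742900, of a class that represses auxin response, had 7215, 7155 and 6421. The auxin response factor Os01g0927600 (OsARF2) ranked 491. The bHLH genes Os03g0391700 and Os01g0218100 ranked 800 and 830, and the membrane-bound NAC gene Os08g0562200 ranked 868. Below the top 1000 came the CCCH gene Os03g0112700 (rank 1186), the homeodomain-like gene Os03g0764600 (rank 1205) and the TGA-type bZIP gene Os04g0637000 (rank 1363). WRKY, GRAS, MADS and heat shock factor genes (70, 32, 22 and 13 listed) had no member in the top 1000. With 1000 of 25580 listed genes in that set, few of them would be in it in any case. The gene that the study overexpressed in OE1, OsERF106MZ (Os08g0537900), ranked 5365 in TNG67 with 958, 921 and 749, above the median gene.

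The steadiness over the libraries was measured by the CV, beside the CV that counting of reads alone would give. The median CV was 4.25% over the 1000 highest genes, against 1.48% from counting alone, and 89.6% of these genes had a CV under 10%. Only 17 of the 1000 had a CV over 20% and 2 had one over 30%. The spread depended on abundance. The median CV was 5.0% for the 130 genes with a mean of 10000 or more, 4.58% for the 4579 genes from 1000 to 10000, 7.86% for the 11735 genes from 100 to 1000, and 19.6% for the 7361 genes from 10 to 100. The CV expected from counting alone has a median of 17% in the last class and 5.74% from 100 to 1000. These counting values are not medians of CVs from 3 libraries, so they are only a rough guide beside those observed. A CV from 3 libraries is itself imprecise, and under a normal spread its SD has a 95% interval from 0.521 to 6.28 times the value.

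**Figure D4:**
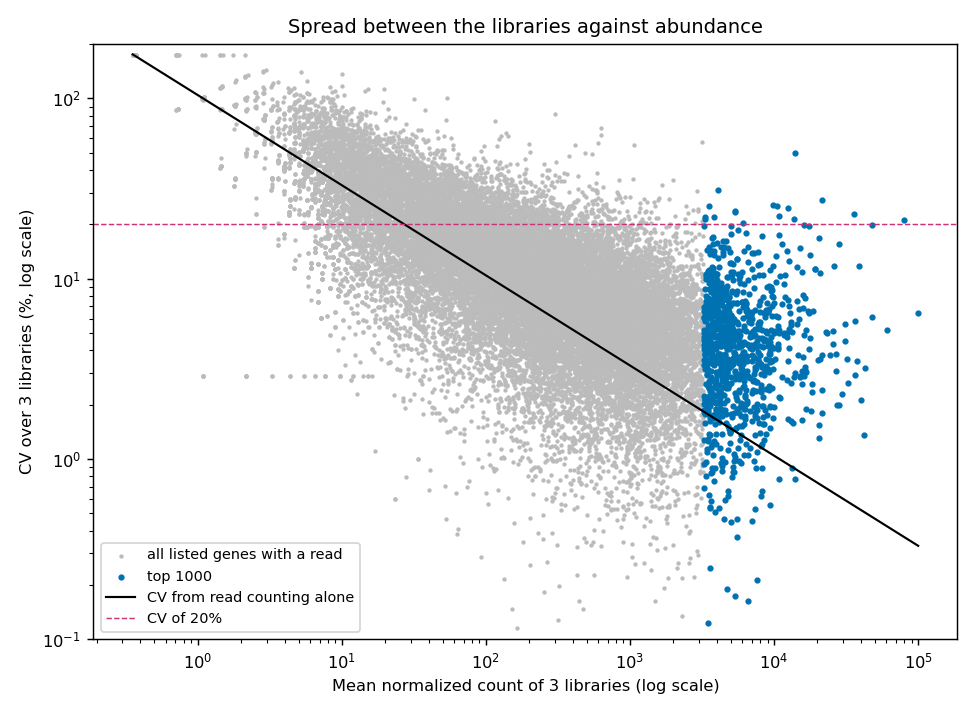
CV over the 3 libraries (%, log scale) against the mean normalized count (log scale) of every listed gene with a read, with the 1000 highest genes in blue, the CV expected from counting alone as a black line and a CV of 20% as a dashed line. The cloud follows the counting line at low means and lies above it at high means, where the median CV of the 1000 highest genes is 4.25%, against 1.48% from counting.

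The 10 steadiest genes of the top 1000 had a CV between 0.122% and 0.462%, below the counting CV of each, as was the case for 91 of the 1000 genes. Such values are the low end of many and do not rank these genes as steadier than others. They included Os08g0112800 (SDH6, with 3469.5, 3476 and 3468), the ARF GAP-like gene Os07g0563800 (with 6607, 6621 and 6599), the tetratricopeptide-like gene Os02g0708400 (with 4722, 4737 and 4721), the CS domain gene Os08g0359500 (with 6963, 6956 and 7013) and the sterol methyltransferase Os07g0206700 (with 5559, 5555 and 5513). The others were Os12g0168900, the kinase-like Os01g0186700, the conserved hypothetical Os08g0567000 and Os07g0445600, and Os01g0952600.

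Genes in common use as references for quantitative PCR had a spread near that of other abundant genes. The median CV was 4.25% over the 1000 highest genes and 4.58% over the genes with a mean from 1000 to 10000. Actin 1 (Os03g0718100) had 1437, 1380 and 1321 and ranked only 3315. The ubiquitin gene Os01g0328400 had 9994, 9116 and 9405, a CV of 4.71%, and the polyubiquitin gene Os02g0161900 had a CV of 2.12%. The CV was 2.83% for eIF4A Os06g0701100, and 4.69% and 3.11% for EF-1 alpha Os03g0177500 and Os03g0178000. The separate levels of these EF-1 alpha copies are uncertain, and so are their separate CVs. The glyceraldehyde-3-phosphate dehydrogenase gene Os08g0126300 was the least steady of these reference genes, with 8093, 9148 and 9665 and a CV of 8.93%.

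In 16 of the 17 genes with a CV over 20% in the top 1000, replicate 3 was either the highest (7 genes) or the lowest (9 genes). Over all 1000 genes replicate 3 was at one of these ends in 686. Without replicate 3 only 7 genes passed this CV, against 23 without replicate 1 and 27 without replicate 2. The genes high in replicate 3 were the 3 metallothioneins named above, a ribosomal RNA gene, the thionin-like Os07g0432201 (with 2854, 4035 and 5402), the jacalin-related lectin Os01g0348900 (salT, with 7032, 10276 and 11973) and the aldo/keto reductase Os04g0339400 (with 2800, 3288 and 4538). The genes low in replicate 3 included the germin-like Os01g0284500 (OsGER4), described as similar to nectarin 1, with 24618, 25209 and 14732. The Bowman-Birk trypsin inhibitor Os01g0124401 had 6388, 5847 and 3948, and germin-like protein 8-4 (Os08g0189300) had 5604, 6424 and 3962. The salT lectin is described with salinity tolerance, and its level differed by this much among roots that received no NaCl. The part of the photosynthesis genes or of ribosomal RNA, which also differed between these libraries, was not tested.

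**Figure D5:**
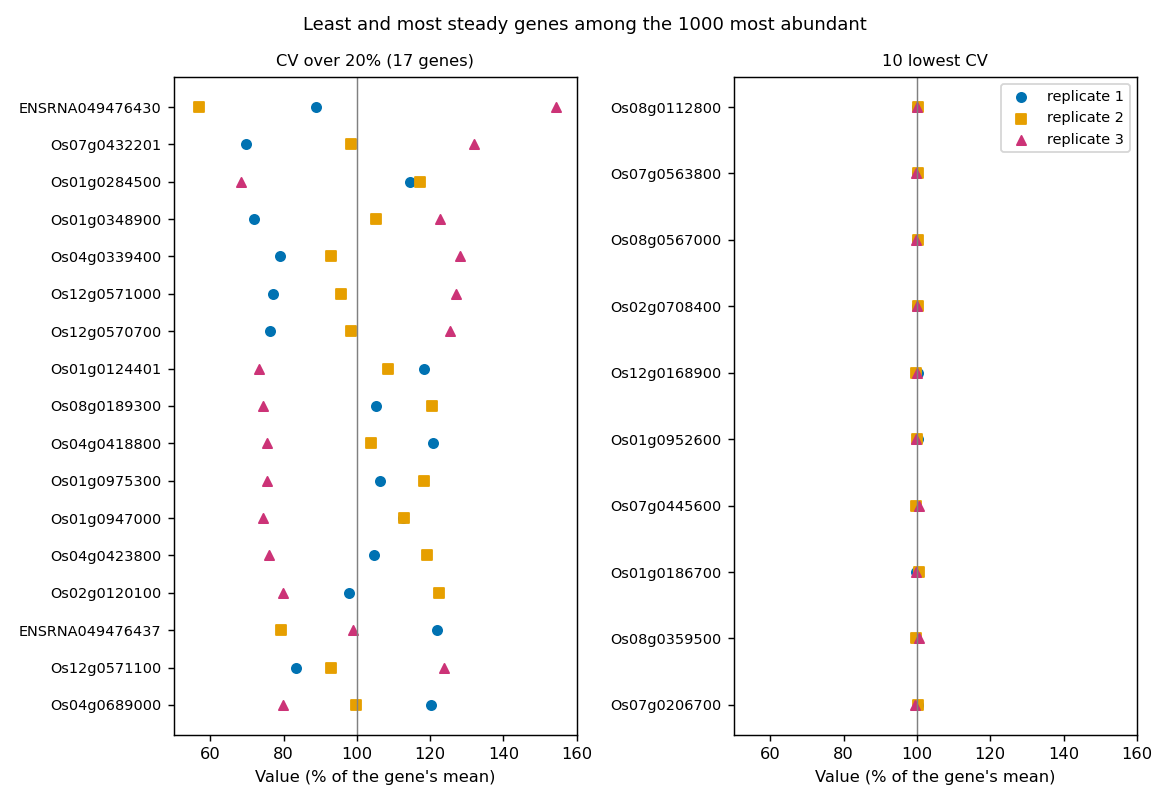
Value in each library as a percent of the gene's mean, for the 17 genes of the top 1000 with a CV over 20% (left, highest CV at the top) and for the 10 genes with the lowest CV (right, lowest at the top), with a symbol for each replicate. Replicate 3 is at one end for 16 of the 17 genes on the left, against 686 of all 1000 genes, and all symbols on the right lie on the line of 100%.

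Ribosomal RNA, which selection of mRNA is meant to remove, held 0.450%, 0.307% and 0.488% in replicates 1, 2 and 3. A small subunit ribosomal RNA (ENSRNA049471102) ranked 4 overall with 53077, 36987 and 53908. Another such gene, ENSRNA049476430, had 12451, 7981 and 21631, the highest CV of the top 1000 at 49.6%.

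Of the 100 highest genes, 7 lay side by side with another of them. How many would do so by placement alone was not computed. Among the 100 highest genes, 4 pairs were direct neighbours in the order of the listed genes, and all 4 pairs held genes of 1 family: 2 pairs of EF-1 alpha genes, the methionine synthases Os12g0623900 and Os12g0624000, and Os11g0455500 with Os11g0455800, an adenosylhomocysteinase and a serine hydroxymethyltransferase of the same cycle. By chromosome, as given in the gene identifiers, 17 of the 100 genes were on chromosome 3, which holds 12.9% of the listed genes with a chromosome, and 15 were on chromosome 2, with 11.5%. Chromosome 1 held 5 of the 100 and 14.1% of the listed genes, and chromosome 9 held 1 of the 100 and 5.49%.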

How the data were processed

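Rice root RNA libraries were made with a kit for mRNA and sequenced in pairs. Per the labels and the study's methods, the authors called bases with CASAVA, trimmed reads with Trimmomatic 0.38 and aligned them with HISAT2 2.1.0 to IRGSP-1.0. The counting tool, its use of strand, the normalization and the filter on listed genes are not given in the sources used here. The deposited values are a signal, reads per gene divided by a size factor. The step between values gave the value of 1 read, and 100% of the values were whole reads to within 0.001 reads. The column of the authors' mean equalled the mean of the 3 libraries.

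From the values were computed means, SDs, CVs, ranks and shares, with Python 3.11.15, numpy 2.4.6, pandas 2.3.3, scipy 1.17.1 and matplotlib 3.10.9. The scripts were tested on simulated data. With 1 group there was no comparison and no test. Reads on the listed genes numbered 16473262 to 17303572 per library, and reads elsewhere were not seen. The counting CV is 100 over the square root of the mean reads. It covers counting error only. Families and TF families were assigned from words in the descriptions, each gene to 1 family. Gene names came from the descriptions and from the gene table of assembly ASM3414082v1, which matched 13754 genes by gene number, and no coordinates of it were used.

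Genes were named by rule: the 30 highest, the 10 highest and 10 lowest CVs of the top 1000, the 2 highest of each family and of each TF family with a gene in the top 1000, reference genes for quantitative PCR, OsERF106MZ and the root, green tissue and endosperm lists. Other members of a family were named after their values were seen. The libraries, families and lists were chosen with earlier results of these data known. Alternatives were the median, counts scaled to equal read totals, each library left out, a minimum mean of 20, a pseudocount of 0.1, descriptions without "Similar to" and, added after seeing the data, ribosomal RNA left out. Sequences and gene lengths were not used here. The result for 1 gene of the top 30 is not reported here.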

Additional observations from a re-analysis of the deposited data

How the results depend on the processing

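No paired analysis was possible because a single group was described and no test was run. Of the 100 highest genes, 97 to 99 stayed in the top 100 when 1 library was left out, 98 with the median and 100 with counts scaled to equal read totals. The share of the 100 highest genes was 12.0% to 12.1% with 1 library left out and 11.9% with ribosomal RNA left out. The share of the named families fell to 9.97% when genes described as "Similar to" were not counted, by construction, and was 24.2% to 24.3% with 1 library left out. The median CV of the top 1000 was 3.35% to 3.67% with 1 library left out. These CVs rest on fewer values than the 4.25% of all 3 libraries, so they cannot be set against it directly. The median CV was 8.27% over all genes with a mean of at least 20 and 9.59% over all genes with a read, which include the less abundant ones. The number of top 1000 genes with a CV over 20% was 7 to 27 with 1 library left out, again from fewer values. The lowest Pearson's r was 0.979 with a pseudocount of 0.1 and 0.989 for a mean of at least 20. The 4 neighbouring pairs were found under each alternative run. Values per kilobase of coding length were planned and not run, since no lengths of the build were used. With 3 libraries, sampling limits every CV given here. Counting weighs most on genes below a mean of about 100. From 100 to 1000 it is still a large part, with a median counting CV of 5.74% against 7.86% observed.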
